A study of Mus musculus with 10 samples.

Results

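The genes described here encode immediate early transcription factors of the AP-1 and EGR families and their companions: Fos, Fosb, Jun, Junb, Jund, Atf3, Egr1, Egr2, Egr3 and Ier2. They were taken by gene name from the deposited table, in which each name has 1 row, so that they are 10 of 52550 genes. All 10 passed the filter on low values (a log2 RPKM over 0 in 2 or more libraries), as did 14787 genes in all. RPKM are reads scaled by the length of the gene and the size of the library, so that levels can be set beside each other between genes. The libraries hold RNA of spleen precursors of conventional dendritic cells (cDCs) from C57BL/6 mice: 3 KO and 3 WT libraries of pre-cDC1, whose titles say DN, and 2 KO and 2 WT libraries of pre-cDC2, whose titles say Ly6C. KO stands for CD11c-cre Adam10fl/fl, in which Cre driven by the CD11c promoter deletes a floxed part of the membrane protease gene Adam10; cells without CD11c promoter activity keep the gene. WT stands for wild type. The sources used here give no age or treatment. No label says that replicates are separate animals, so the p-values measure the spread between libraries, which may be technical.

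Immediate early genes are transcribed within minutes of a stimulus, without new protein synthesis, and their transcripts are short-lived. Growth factors, cytokines, microbial products and cell stress switch them on through MAP kinases, serum response factor and CREB, and the handling of tissue can do so too. Fos proteins pair with Jun proteins to form AP-1, ATF3 is a stress-induced relative that can repress, the EGR proteins are zinc finger factors bound to GC-rich elements, and IER2 is a small nuclear protein induced with them. In dendritic cells AP-1 and EGR factors are known from the response to microbial products.

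Adam10 had 9, 3 and 13 reads in KO pre-cDC1 against 28, 48 and 10 reads in WT pre-cDC1, and 909 and 742 reads in KO pre-cDC2 against 228 and 1261 reads in WT pre-cDC2. These are counts over the whole gene and do not check the deletion. The cDC1 markers Xcr1 (8207 to 14480 reads), Clec9a (4632 to 6892) and Batf3 (325 to 510) were present in all pre-cDC1 libraries. In pre-cDC2 the summed level of 10 T cell markers was 1089 to 1215 RPKM in KO and 97.9 and 1667 RPKM in WT replicates 2 and 3, against 2.29 to 14.3 RPKM over the pre-cDC1 libraries. In 3 of the 4 pre-cDC2 libraries T cell transcripts were thus abundant, and NK cell markers gave the same picture (1372 to 1546 RPKM in KO, 72.2 and 1690 RPKM in WT replicates 2 and 3). The WT pre-cDC2 libraries, replicates 2 and 3, stood apart from each other, with 5205 genes more than 2-fold different. The other pairs within groups had 2632 to 3194. This number belongs to the pair and does not say which library is unusual. Calls among the 10 genes and list medians that use WT pre-cDC2 are therefore given with both libraries and, beside them, without replicate 2. Calls among the 10 genes are given without replicate 3 as well, and list medians are not. Total reads recovered from the values were 7862449 to 13177686 per library. In bulk RNA, fewer cells of a type and less RNA per cell cannot be told apart.

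The promoters of these genes are known for elements of CREB, serum response factor, AP-1 and EGR proteins, through which they are switched on and regulate each other. RefSeq promoters (GRCm38.p6) were at hand for 7 of the 10 genes, all but Egr1, Egr3 and Ier2. The 250 bases before each annotated start were searched on both strands for the cAMP response element TGACGTCA, its core TGACG, which lies within the longer letters, the AP-1 element TGANTCA, the EGR element GCGNGGGCG and the CArG box of serum response factor. The core was found in 5 of the 7 genes, the CArG box in 1 (Egr2) and the EGR element in 1 (Fosb), while TGACGTCA and TGANTCA were found in none. Over all 27025 genes of the table the shares were 19.8% for the core, 1.62% for the CArG box, 5.33% for the EGR element, 1.77% for TGACGTCA and 7.82% for TGANTCA. Jun and Jund held no match. Elements farther than 250 bases from a start were not searched, so an absent match holds for this window only. The Jund window lies before the RefSeq start, which is 1210 bases before the start of the gene model counted here. The 5 promoters with a match are shown so that their elements can be compared, written 5′ to 3′ on the strand of the gene and ending at the base before the start. Capitals mark the matches. They are Fos at chr12:85473640-85473889 on the plus strand, Fosb at chr7:19310046-19310295 on the minus strand, Junb at chr8:84978749-84978998 on the minus strand, Atf3 at chr1:191183334-191183583 on the minus strand and Egr2, at the start in the table that is numbered 3, at chr10:67537619-67537868 on the plus strand.
Fos: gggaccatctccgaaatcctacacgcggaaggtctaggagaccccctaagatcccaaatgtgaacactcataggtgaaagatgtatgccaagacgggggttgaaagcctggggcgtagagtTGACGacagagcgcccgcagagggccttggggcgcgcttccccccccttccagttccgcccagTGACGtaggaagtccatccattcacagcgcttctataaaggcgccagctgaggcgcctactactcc
Fosb: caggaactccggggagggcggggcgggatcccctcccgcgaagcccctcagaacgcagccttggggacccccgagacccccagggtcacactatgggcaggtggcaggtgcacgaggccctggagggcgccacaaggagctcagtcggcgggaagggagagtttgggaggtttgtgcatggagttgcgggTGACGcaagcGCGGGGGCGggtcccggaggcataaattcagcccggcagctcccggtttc
Junb: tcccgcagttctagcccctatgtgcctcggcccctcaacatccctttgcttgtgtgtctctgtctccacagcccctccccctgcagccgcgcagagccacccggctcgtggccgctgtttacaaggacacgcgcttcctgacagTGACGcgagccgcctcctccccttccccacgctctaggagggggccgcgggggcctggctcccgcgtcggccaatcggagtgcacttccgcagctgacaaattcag
Atf3: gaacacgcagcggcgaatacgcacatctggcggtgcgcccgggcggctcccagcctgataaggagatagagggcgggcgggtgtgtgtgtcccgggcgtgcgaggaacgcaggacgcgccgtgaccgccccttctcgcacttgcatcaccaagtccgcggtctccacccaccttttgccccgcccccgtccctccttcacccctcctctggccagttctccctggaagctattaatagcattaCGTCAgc
Egr2: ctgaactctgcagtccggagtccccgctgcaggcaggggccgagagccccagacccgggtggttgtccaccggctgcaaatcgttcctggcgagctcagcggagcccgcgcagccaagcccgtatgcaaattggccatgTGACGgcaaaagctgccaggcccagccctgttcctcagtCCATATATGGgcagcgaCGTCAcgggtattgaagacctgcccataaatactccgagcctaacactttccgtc
In Fos the core stands 129 to 125 and again 66 to 62 bases before the start. In Fosb it stands 60 to 56 bases before the start, next to the EGR element at 50 to 42. Junb has it 106 to 102 bases before the start, and Atf3 has it on the other strand 7 to 3 bases before the start. In Egr2 the CArG box lies 72 to 63 bases before the start, with the core at 111 to 107 and, on the other strand, at 55 to 51. A match is a description of the letters and not a site of binding.

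The 10 genes spanned 3 orders of magnitude in level. Fos was the most abundant in every library, at 829 to 942 RPKM in KO and 1206 to 1229 RPKM in WT pre-cDC1, and at 421 and 475 RPKM in KO and 800 and 509 RPKM in WT pre-cDC2 (replicates 1 and 2 of KO, 2 and 3 of WT). It ranked between 26 and 48 among the 14787 tested genes. Jun, Junb and Ier2 came next, between ranks 63 and 412, and their order changed with the cell type. Jun and Junb overlapped in level in pre-cDC1, with Jun at 204 to 257 RPKM in KO and 292 to 352 RPKM in WT, and Junb at 193 to 209 RPKM in KO and 292 to 350 RPKM in WT. Ier2 lay below both there, at 103 to 111 RPKM in KO and 198 to 208 RPKM in WT. Atf3 ranked between 227 and 1235, Fosb between 807 and 2008 and Egr1 between 1677 and 4171. Egr2, Egr3 and Jund were near the lower end, at ranks 6629 to 13505, with levels of 0.352 to 5.44 RPKM that overlapped each other. Their values rest on few reads, 38 to 188 for Egr2, 15 to 127 for Egr3 and 15 to 43 for Jund, against 9735 to 28868 for Fos.

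**Figure D1:**
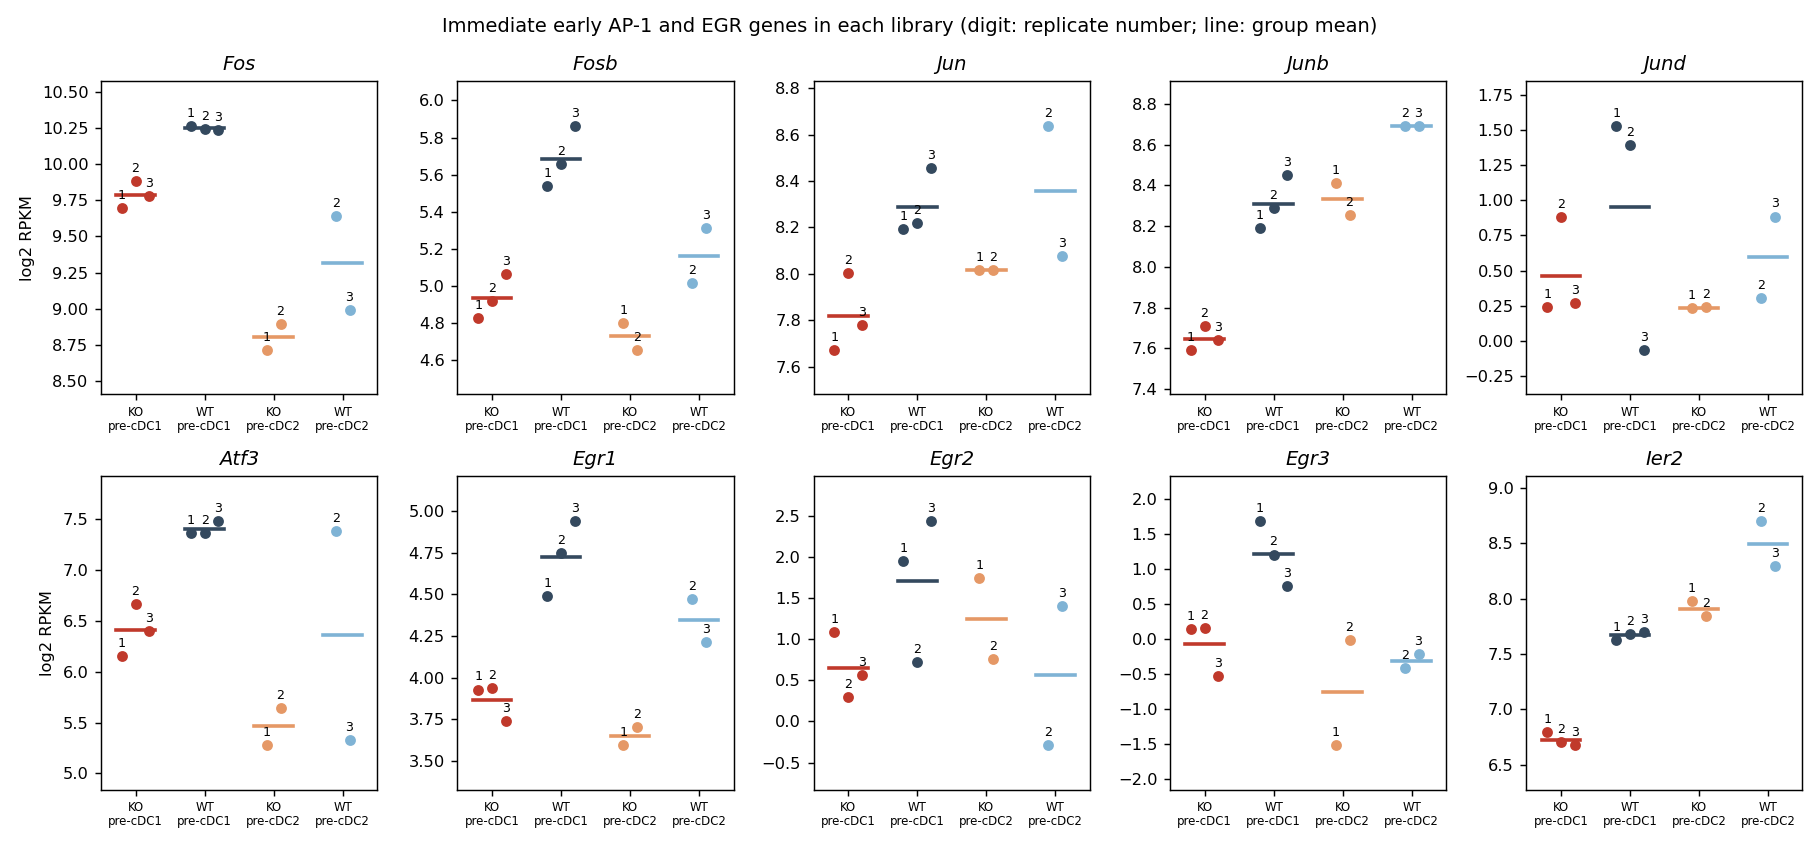
Level of each gene (log2 RPKM, own axis per panel) in the 10 libraries, with points for libraries, digits for replicate numbers and lines for group means. In pre-cDC1 the KO points lie below the WT points for 8 genes, all but Jund and Egr2; in pre-cDC2 the WT libraries are far apart for Atf3 (7.39 and 5.33).

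Values of Jund call for care, since JunD is known as the Jun protein that many cells express without a stimulus. The counted gene model (ENSMUSG00000071076.6, chromosome 8, 70698949 to 70700616, plus strand, GRCm38) begins 1210 bases after the RefSeq start, so that reads of those bases fell outside it. Of its exonic bases 52.6% overlap the antisense gene Gm11175, which had 0 reads in all libraries. Without the strand setting of the counting, these 0 reads do not show that the overlap left the count of Jund whole. Of Junb 7.52% and of Jun 7.28% of exonic bases overlap genes on the other strand (Prdx2, with 517 to 1737 reads, and Junos, with 4 to 15), and no source used here gives the strand setting of the counting, so reads of those stretches cannot be told apart.

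The study asks what ADAM10 does in the development of cDCs, and the comparison of KO with WT is its main contrast. In pre-cDC1 every one of the 10 genes had a lower mean in KO, by 0.46 to 1.29 on the log2 scale, with a median of -0.80 against -0.00 over all genes tested, of which 50.6% were lower. None passed limma with Benjamini-Hochberg adjustment over all genes, a rule by which 0.0271% of genes were called. At an unadjusted p below 0.05, 8 of the 10 were lower, against 5.14% of all genes, and voom on recovered reads also called 0 of them. That count was 4 without KO replicate 1 or 3 (5.65% and 4.48% of all genes) and 5 without KO replicate 2 (4.46%), without WT replicate 1 or 3 (4.47% and 3.90%) and under quantile normalization (4.38%). The KO libraries all lay below the WT libraries for 8 genes, where 9.27% of all genes did so. Log2 changes from here on are KO minus WT with the standard error of limma.

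Among the Fos proteins, Fos (ENSMUSG00000021250.13, chromosome 12, 85473890 to 85477273), the prototype partner of Jun in AP-1, was at 9.70, 9.88 and 9.78 log2 RPKM in KO pre-cDC1, against 10.26, 10.24 and 10.24 log2 RPKM in WT. The groups did not overlap and differed by -0.46 ± 0.20 (SE, n = 3 and 3; 95% interval -0.91 to -0.02; limma adjusted p = 0.526). Fosb (ENSMUSG00000003545.3, chromosome 7, 19302696 to 19310051), whose protein pairs with Jun in the same way, had 4.83, 4.92 and 5.06 log2 RPKM in KO and 5.54, 5.66 and 5.86 log2 RPKM in WT. Each KO library was below each WT library, by -0.75 ± 0.14 on average (limma adjusted p = 0.106). Atf3 (ENSMUSG00000026628.13, chromosome 1, 191170296 to 191218039), the stress-induced ATF protein, had 6.154, 6.665 and 6.405 log2 RPKM in KO pre-cDC1 and 7.366, 7.367 and 7.484 log2 RPKM in WT. The groups did not overlap, with an SD of 0.26 in KO and 0.07 in WT, and the difference of -0.998 ± 0.42 had a limma adjusted p of 0.517. All groups share 1 estimate of the spread, and the standard error was 0.15 when either WT pre-cDC2 library was left out.

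Of the Jun proteins, Jun (ENSMUSG00000052684.4, chromosome 4, 95049034 to 95052222), the main partner of Fos, had 7.673, 8.003 and 7.778 log2 RPKM in KO pre-cDC1, against 8.192, 8.218 and 8.458 log2 RPKM in WT. Junb (ENSMUSG00000052837.6, chromosome 8, 84974484 to 84978718), a Jun protein that can also restrain AP-1, had 7.59, 7.71 and 7.64 log2 RPKM in KO and 8.19, 8.29 and 8.45 log2 RPKM in WT. Neither overlapped between the groups. Jun differed by -0.47 ± 0.18 (limma adjusted p = 0.451) and Junb by -0.66 ± 0.13 (limma adjusted p = 0.128). Jund, with 0.24, 0.88 and 0.27 log2 RPKM in KO and 1.53, 1.39 and -0.06 log2 RPKM in WT, overlapped and had an interval of -1.65 to 0.67.

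Among the EGR genes, Egr2 and Egr3 gave the largest mean differences of the group in pre-cDC1 and also the widest errors. Egr1 (ENSMUSG00000038418.7), the most abundant of them, was at 3.93, 3.94 and 3.74 log2 RPKM in KO pre-cDC1 and 4.49, 4.75 and 4.94 log2 RPKM in WT. The groups were apart, with a difference of -0.86 ± 0.16 (1.81-fold lower; limma adjusted p = 0.0940). Egr2 (ENSMUSG00000037868.15, chromosome 10, 67535475 to 67542188), known in T cells and macrophages as a brake on activation, had 1.09, 0.30 and 0.57 log2 RPKM in KO and 1.96, 0.72 and 2.44 log2 RPKM in WT. It overlapped between the groups and differed by -1.05 ± 0.60 (limma adjusted p = 0.661). Egr3 (ENSMUSG00000033730.4, chromosome 14, 70077203 to 70082614), its close relative, had 0.15, 0.16 and -0.53 log2 RPKM in KO and 1.69, 1.21 and 0.77 log2 RPKM in WT, without overlap, at -1.29 ± 0.55 (limma adjusted p = 0.522).

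Ier2 (ENSMUSG00000053560.4, chromosome 8, 84661331 to 84662852) had the smallest p of the group in pre-cDC1. Its level was 6.79, 6.70 and 6.68 log2 RPKM in KO pre-cDC1, against 7.63, 7.68 and 7.70 log2 RPKM in WT, so that the highest KO library lay well below the lowest WT library. The difference was -0.94 ± 0.14 (1.92-fold lower; 95% interval -1.25 to -0.64), and with a limma adjusted p of 0.0526 it missed the threshold of 0.05. It passed with no filter (adjusted p = 0.0484), with the stricter filter (log2 RPKM over 1 in 3 or more libraries; 0.0402) and when only the pre-cDC1 libraries were fitted (0.0204). Over all 18 alternatives Ier2 passed in 5, and its limma adjusted p reached 0.255 in the others. Leaving out WT pre-cDC2 replicate 2 left the pre-cDC1 differences as they were and made the shared spread smaller, and then Fosb, Junb, Atf3, Egr1 and Ier2 passed limma, at adjusted p = 0.0369, 0.0353, 0.0355, 0.0454 and 0.00338. The same 5 genes passed without WT pre-cDC2 replicate 3, at adjusted p = 0.0355, 0.0329, 0.0329, 0.0442 and 0.00327. More of all genes passed as well, 109 (98 lower, 0.663% of all genes) without replicate 2 and 114 (102 lower, 0.690%) without replicate 3, against 4 with both.

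In pre-cDC2 the same direction was seen with 2 libraries a group. Of the 10 genes 9 had a lower mean in KO, against 48.7% of all genes, with a median of -0.44 against 0.00 over all genes. No gene of the group passed limma, which called 0.0676% of all genes, nor did voom call any. At an unadjusted p below 0.05, 4 were lower (Fosb, Junb, Egr1 and Ier2), against 3.12% of all genes. That count was 4 without WT replicate 2 (2.98% of all genes), 6 without WT replicate 3 (10.7%), 2 without KO replicate 2 (3.81%) or with total reads (2.39%), and 1 with only the pre-cDC2 libraries fitted (1.85%). The groups did not overlap for 7 genes that were lower (Fos, Fosb, Jun, Junb, Jund, Egr1 and Ier2), as for 14.6% of all genes.

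Fos was at 8.72 and 8.89 log2 RPKM in KO pre-cDC2 and at 9.64 and 8.99 log2 RPKM in WT replicates 2 and 3, a difference of -0.51 ± 0.24 (SE, n = 2 and 2; limma adjusted p = 0.761). Ier2 was at 7.98 and 7.84 log2 RPKM in KO and at 8.70 and 8.29 log2 RPKM in WT, a difference of -0.59 ± 0.17 (limma adjusted p = 0.471). Egr1 had 3.60 and 3.70 log2 RPKM in KO, against 4.47 and 4.22 log2 RPKM in WT, and the difference of -0.69 ± 0.19 was 1.62-fold lower (limma adjusted p = 0.460). For Fos and Ier2 the lower of the WT libraries, replicate 3, lay close to KO, while both WT libraries were well above KO for Egr1. Junb had 8.41 and 8.26 log2 RPKM in KO and 8.69 in each WT library (-0.36 ± 0.16, limma adjusted p = 0.747). Fosb had 4.80 and 4.66 log2 RPKM in KO and 5.01 and 5.31 log2 RPKM in WT (-0.44 ± 0.17, limma adjusted p = 0.694), and Jun had 8.02 in each KO library and 8.64 and 8.08 log2 RPKM in WT (-0.34 ± 0.22, limma adjusted p = 0.826).

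Atf3 was the gene for which the WT pre-cDC2 libraries were farthest apart. It had 5.28 and 5.64 log2 RPKM in KO, and 7.39 in WT replicate 2 but 5.33 in WT replicate 3, within the KO values. Egr2 ran the other way, with 1.75 and 0.76 log2 RPKM in KO and -0.28 and 1.41 log2 RPKM in WT (0.69 ± 0.73). Egr3, at -1.51 and -0.01 log2 RPKM in KO and -0.42 and -0.21 log2 RPKM in WT, overlapped, and Jund had 0.23 and 0.24 log2 RPKM in KO and 0.31 and 0.88 log2 RPKM in WT. Without WT replicate 2, which leaves 1 WT library whose spread is assumed to be that of the other groups, Fos differed by -0.19 ± 0.15, Jun by -0.06 ± 0.17, Atf3 by 0.14 ± 0.22, Egr2 by -0.15 ± 0.77, Egr1 by -0.56 ± 0.21 and Ier2 by -0.38 ± 0.12. Fosb differed by -0.58 ± 0.17, Junb by -0.36 ± 0.15, Jund by -0.65 ± 0.75 and Egr3 by -0.54 ± 0.80, and none of the 10 passed. The median of the 10 was then -0.37, with 9 lower, and 48 of all genes passed (7 lower). Without WT replicate 3, Fos at -0.84 ± 0.15, Atf3 at -1.93 ± 0.22 and Ier2 at -0.79 ± 0.12 passed limma, at adjusted p = 0.0183, 0.00383 and 0.00940, while 1048 of all genes passed, 503 of them lower and 545 higher (7.09% together). The size of the pre-cDC2 differences of Fos, Jun and Atf3 thus rested on which WT library was kept.

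**Figure D2:**
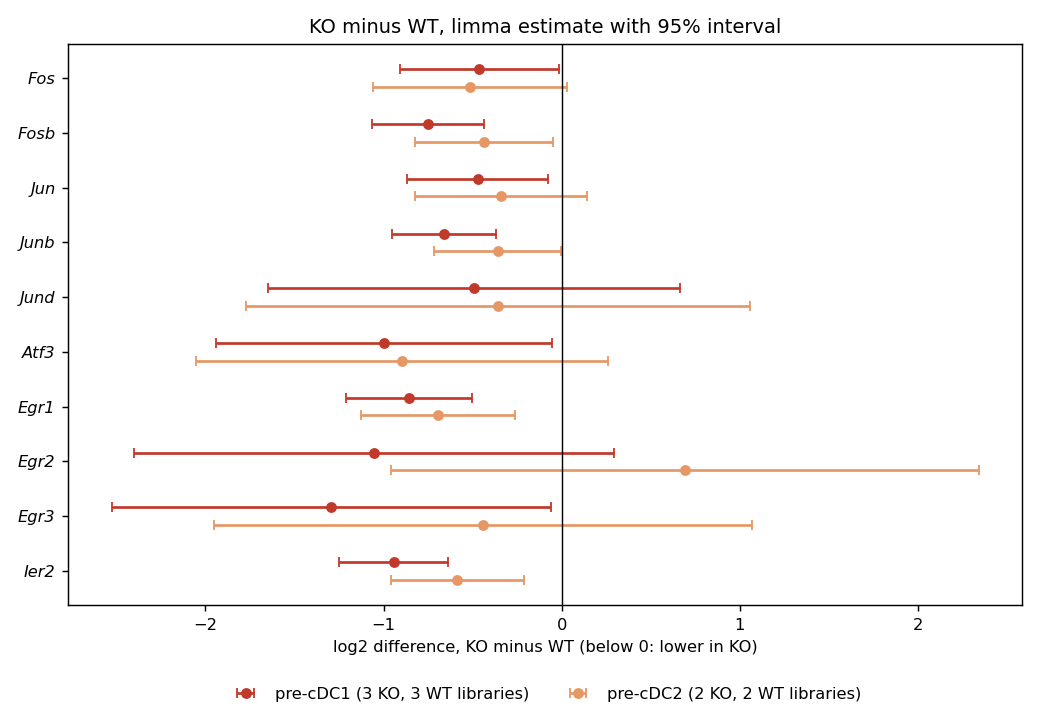
KO minus WT on the log2 scale for each gene, with the limma estimate (point) and 95% interval (bar), in pre-cDC1 (3 KO and 3 WT libraries) and pre-cDC2 (2 KO and 2 WT libraries). All 10 estimates in pre-cDC1 lie below 0, from -0.46 for Fos to -1.29 for Egr3; in pre-cDC2 Egr2 lies above 0 at 0.69.

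Averaged over both cell types, all 10 means were lower in KO, as for 51% of genes. Ier2 fell in KO, by 0.76 ± 0.11 on the log2 scale (1.70-fold lower; limma adjusted p = 0.0473), and was the 1 gene of the group past the threshold, where 0.0473% of all genes were called as lower. It was lower in each of the 5 KO libraries than in each WT library of its cell type. The call was lost under quantile normalization (adjusted p = 0.0514), scaling to total reads (0.0527) and voom (0.0642), and without any 1 of the 8 libraries other than those of WT pre-cDC2 (0.0675 to 0.195). Next to it were Egr1 at -0.78 ± 0.12 (limma adjusted p = 0.0736), Fosb at -0.59 ± 0.11 (0.0930) and Junb at -0.51 ± 0.10 (0.100). Without WT pre-cDC2 replicate 3, 7 genes of the group passed (Fos, Fosb, Jun, Junb, Atf3, Egr1 and Ier2), as did 1089 of all genes, 598 of them lower (4.04%). Without WT pre-cDC2 replicate 2, Ier2 alone of the 10 passed (-0.66 ± 0.07, adjusted p = 0.0196), with 56 of all genes, 17 of them lower. The interaction asks whether the difference between KO and WT itself differs between the cell types, and limma called none of the genes (0.0203% of all genes), with 0 at an unadjusted p below 0.05 (4.82% of all genes) and 0 by voom. The interval of the interaction was -0.12 to 0.84 for Ier2 and -0.40 to 0.72 for Egr1, and without WT pre-cDC2 replicate 2 it was 0.24 to 0.89 for Ier2 and -0.29 to 0.87 for Egr1. In that fit 2 members had an unadjusted p below 0.05, Atf3 (1.13 ± 0.27, limma adjusted p = 0.219) and Ier2 (0.56 ± 0.14, adjusted p = 0.245), with 8.71% of all genes. Without replicate 3 there were 2 as well, Atf3 with the opposite sign (-0.93 ± 0.27, limma adjusted p = 0.128) and Egr2 (2.59 ± 0.95, adjusted p = 0.229), with 16.1% of all genes.

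As shares of all reads, the 10 genes together took 0.328% to 0.392% of reads in KO pre-cDC1 and 0.512% to 0.552% in WT pre-cDC1. In pre-cDC2 they took 0.373% and 0.370% in KO and 0.564% and 0.424% in WT replicates 2 and 3. The KO libraries thus lay below the WT libraries in both cell types. Fos made up the greatest part of it, at 0.177% to 0.209% of reads in KO pre-cDC1 and 0.258% to 0.266% in WT.

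**Figure D3:**
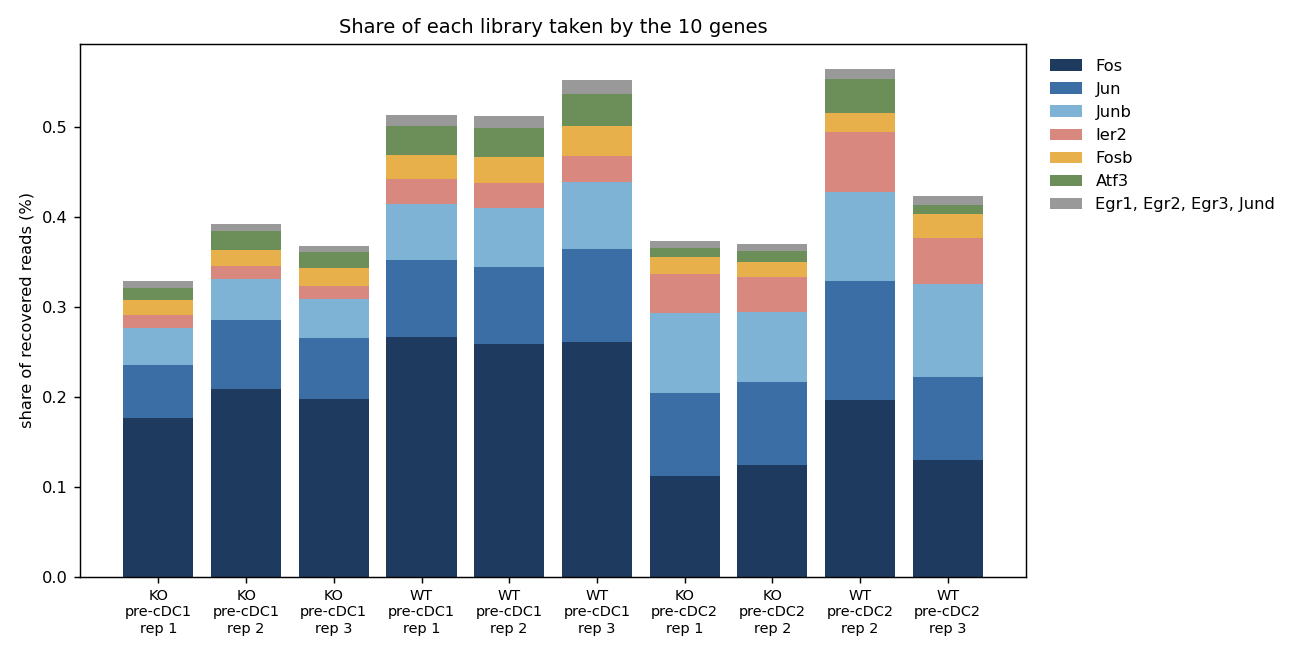
Share of recovered reads (percent, bars from 0) taken by the 10 genes in each library, stacked by gene. The KO pre-cDC1 bars end between 0.328% and 0.392% and the WT pre-cDC1 bars between 0.512% and 0.552%; Fos is the largest piece in each bar.

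Other genes of early responses were followed in lists. Of 34 other immediate early genes tested, 29 had a lower mean in KO pre-cDC1 and none was called, with a median of -0.33. Those with the smallest p were the transcription factor Csrnp1 at -0.76 ± 0.15 (limma adjusted p = 0.132), the orphan nuclear receptor Nr4a1 at -0.91 ± 0.19 (0.150), the clock gene Per1 at -0.9999 ± 0.22 (0.173) and the kinase Plk2 at -2.74 ± 0.74 (0.247). All 17 tested genes of the NF-kB early response had a lower mean, with a median of -0.58. Among them were the inhibitor Nfkbia at -1.17 ± 0.16 and Nfkbiz at -0.84 ± 0.11 (both limma adjusted p = 0.0526) and the chemokine Ccl3 at -1.24 ± 0.20 (0.0715). Of 11 feedback inhibitors of ERK and p38, 8 had a lower mean (median -0.62), led by the phosphatase Dusp1 at -0.73 ± 0.15 and the ERK pathway inhibitor Spry2 at -2.04 ± 0.74 (limma adjusted p = 0.151 and 0.428). Averaged over the cell types with all libraries, Nfkbia was the only called gene of these lists, at -0.98 ± 0.13 (limma adjusted p = 0.0420; 0.0421 without WT pre-cDC2 replicate 2).

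Relatives of the group among the AP-1 and ATF proteins were mixed. Of 14 other AP-1 and ATF genes 7 had a lower and 7 a higher mean in KO pre-cDC1, with a median of -0.01; the small Maf protein Mafk was at 0.51 ± 0.18 and Atf4, the factor of the integrated stress response, at -0.47 ± 0.18 (limma adjusted p = 0.400 and 0.468). The 18 upstream factors and kinases had a median of -0.10, with 10 lower, and the kinases Map2k2 at -0.32 ± 0.14 and Map3k8 at -0.36 ± 0.18 had the smallest p (limma adjusted p = 0.534 and 0.611). The EGR co-repressors Nab1 and Nab2 were at -0.42 ± 0.26 and 0.89 ± 1.06, while Egr4 did not pass the filter. Heat shock genes, which also respond to stress of cells, ran slightly the other way, with 4 of 15 lower and a median of 0.08; the co-chaperone Bag3 was at 0.64 ± 0.29 and the chaperone Hsph1 at 0.44 ± 0.25 (limma adjusted p = 0.561 and 0.655). In pre-cDC2 the medians were -0.47 for the other immediate early genes (27 of 34 lower), -0.20 for NF-kB (14 of 17 lower), -0.31 for other AP-1 and ATF genes (10 of 14 lower), -0.09 for upstream factors (12 of 18 lower), -0.04 for the feedback inhibitors (6 of 11 lower) and 0.03 for heat shock genes (6 of 15 lower). Without WT replicate 2 they were -0.35 for the other immediate early genes (27 lower), -0.01 for NF-kB (10 lower), 0.08 for other AP-1 and ATF genes (6 lower), 0.01 for upstream factors (8 lower), -0.43 for the feedback inhibitors (7 lower) and -0.04 for heat shock genes (9 lower). With both WT libraries none of their genes was called there, and the smallest p were those of the GTPase Rhob, at -1.02 ± 0.24, and the RNA-binding protein gene Zfp36l1, at -0.64 ± 0.15 (limma adjusted p = 0.352 and 0.387; -1.24 and -0.61 without WT replicate 2).

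**Figure D4:**
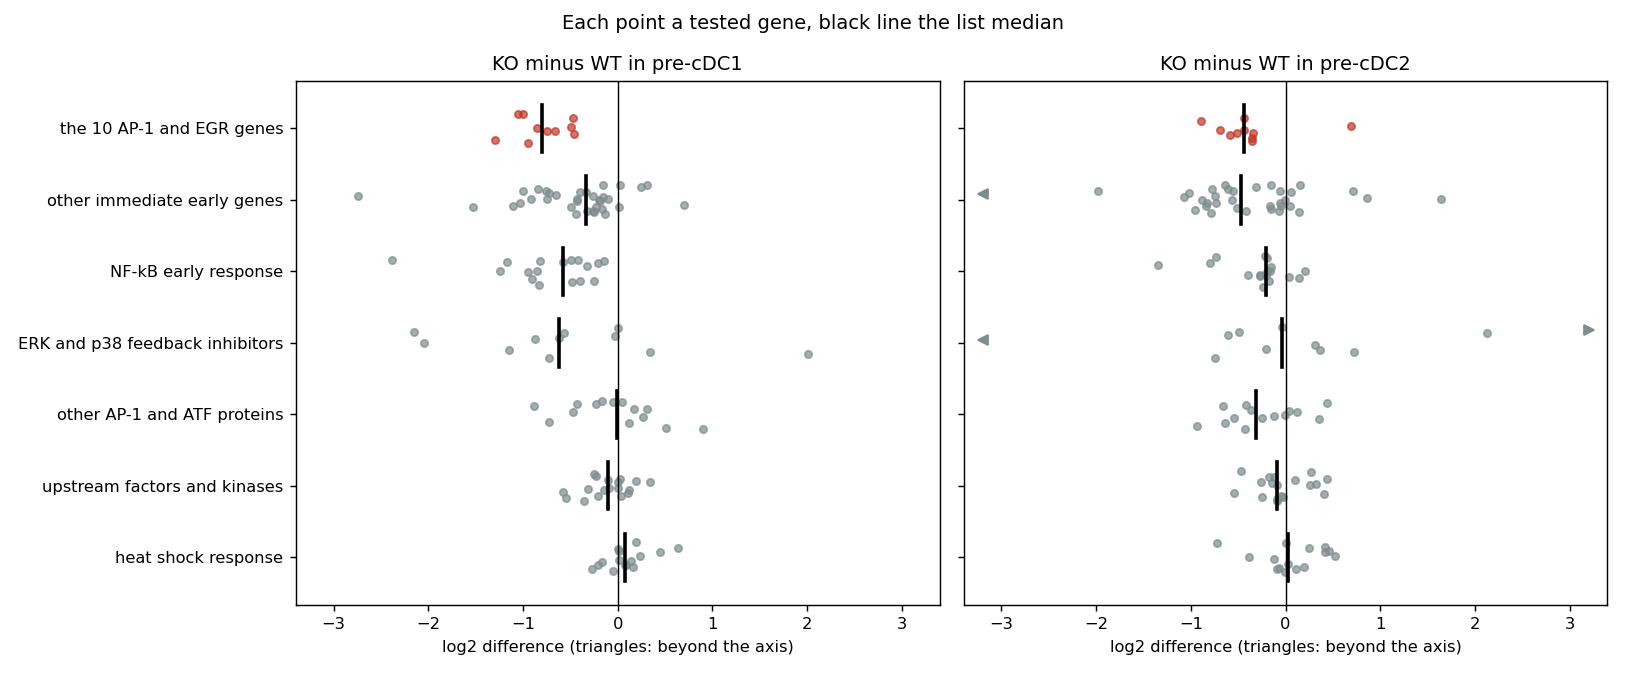
KO minus WT on the log2 scale for every tested gene of each list (points), with the list median (black line), in pre-cDC1 and pre-cDC2; triangles stand for values beyond the axis. In pre-cDC1 the medians of the 10 genes (-0.80), of ERK and p38 feedback inhibitors (-0.62), of the NF-kB early response (-0.58) and of other immediate early genes (-0.33) lie below 0, while that of heat shock genes is 0.08.

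Markers of other cells moved with the KO and WT groups of pre-cDC1. Of 10 NK cell markers all had a lower mean in KO, with a summed level of 3.82 to 4.98 RPKM in KO and 19.7 to 24.2 RPKM in WT, and Klrb1c and Ncr1 were at 0 reads in 2 of the 3 KO libraries. Of 11 identifiers of cDC2 markers (Itgam has 2) all were lower, with 31.8 to 60.3 RPKM in KO and 215 to 258 RPKM in WT. B cell markers summed to 345 to 395 RPKM in KO and 590 to 693 RPKM in WT (7 of 10 lower), with Pax5 at 0 reads in all pre-cDC1 libraries. Monocyte and macrophage markers summed to 1287 to 1703 RPKM in KO and 2044 to 2248 RPKM in WT (8 of 10 lower), and neutrophil markers to 56.8 to 116 RPKM in KO and 130 to 160 RPKM in WT (10 of 10 lower). T cell markers summed to 2.29 to 4.48 RPKM in KO and 5.85 to 14.3 RPKM in WT (9 of 10 lower), with Cd3g, Cd3e and Trac at 0 reads in 1 or more KO libraries, and those of plasmacytoid dendritic cells to 147 to 170 RPKM in KO and 187 to 213 RPKM in WT (6 of 10 lower). The cDC1 markers were higher, at 3283 to 3610 RPKM in KO and 2728 to 2873 RPKM in WT (0 of 10 lower), as were erythroid markers at 44.2 to 79.6 RPKM in KO and 19.6 to 32.8 RPKM in WT. The part of these cells in the lower AP-1 and EGR levels was not tested.

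In pre-cDC2 several marker lists differed more between the WT libraries than between KO and WT. The cDC2 markers summed to 698 and 703 RPKM in KO and 1365 and 625 RPKM in WT replicates 2 and 3, and those of plasmacytoid dendritic cells to 513 to 617 RPKM in KO and 1105 and 432 RPKM in WT. Fos, Jun and Atf3 were high in the same WT library, replicate 2, that was high in these sums and low in those of T and NK cell markers. Ier2 (8.70 and 8.29 log2 RPKM) and Egr1 (4.47 and 4.22) were also higher in replicate 2 than in replicate 3. Fosb, Jund, Egr2 and Egr3 were lower there, and Junb was at 8.69 in both. Replicate 2 was also higher in the sums of cDC1 (554 and 174 RPKM) and monocyte and macrophage markers (675 and 239 RPKM). The cDC1 markers did not all follow their sum. Cd36 had 7086 and 379 reads in replicates 2 and 3, but Xcr1 had 44 and 72 and Itgae 21 and 38. Tbx21 of the cDC2 list ran against its sum, with 220 reads in replicate 2 but 2269 in replicate 3. The KO pre-cDC2 libraries held 1677 and 1873 reads of Tbx21. All other cDC2 markers were higher in replicate 2. Cd4 ran against the T cell sum, at 593 reads in replicate 2 but 159 in replicate 3, while the others of that list were lower in replicate 2. The sums for neutrophils and for pre-cDC and cDC were higher in replicate 2 too, although Id2 of the latter list was lower (272 and 2241 reads). The B cell sum was lower (1100 and 1715 RPKM), with Igkc at 619 and 6848 reads but Ighm at 25730 and 11486. By mean log2 RPKM the B cell markers were higher in replicate 2 (-0.05 and -1.59). Erythroid markers were at 42.9 to 79.3 RPKM in KO and 7.31 to 18.3 RPKM in WT. The part of these cells in the pre-cDC2 values was not tested.

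The cell types were compared within each genotype, pre-cDC2 minus pre-cDC1. These genes moved in both directions: Ier2 rose and Fos fell in pre-cDC2 of both genotypes, and Junb rose in KO. In KO limma called 3 of the 10 genes, 2 higher and 1 lower, where 10.7% of all genes were called as higher and 10.1% as lower. In WT it called 2, 1 higher and 1 lower, where 4.88% and 6.59% of all genes were called as higher and as lower. The shares over all genes were thus large in this contrast.

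Ier2 was higher in pre-cDC2 by 1.19 ± 0.15 in KO (2.27-fold; limma adjusted p = 0.000771) and by 0.83 ± 0.15 in WT (1.77-fold; adjusted p = 0.00862), and each pre-cDC2 library lay above each pre-cDC1 library of its genotype. Fos was lower in pre-cDC2 by -0.98 ± 0.22 in KO (limma adjusted p = 0.0130) and by -0.93 ± 0.22 in WT (adjusted p = 0.0259). The call for Fos was lost under quantile normalization, at -0.41 (adjusted p = 0.269) in KO and -0.39 (0.369) in WT, and in WT also under scaling to total reads (0.0562). It was lost in KO without KO pre-cDC2 replicate 1 or 2 (limma adjusted p = 0.102 and 0.0539) and in WT without any 1 of the WT pre-cDC1 libraries (0.0735 to 0.0848). With only the WT libraries fitted, neither Fos (0.134) nor Ier2 (0.0819) passed. With a block for replicate number within genotype, no call was kept in either genotype. The limma adjusted p was then 0.0535 for Ier2, 0.171 for Junb and 0.177 for Fos in KO. In WT it was 0.173 for Ier2 and 0.276 for Fos. Junb was higher by 0.69 ± 0.14 in KO (limma adjusted p = 0.00947; 0.0780 without KO pre-cDC2 replicate 1) and by 0.38 ± 0.14 in WT (adjusted p = 0.130; 0.0295 under scaling to total reads). Jun differed by 0.20 ± 0.20 in KO and 0.07 ± 0.20 in WT, with intervals of -0.24 to 0.64 and -0.37 to 0.51. Atf3 differed by -0.95 ± 0.47 in KO (limma adjusted p = 0.195, and 0.00444 and 0.00438 without WT pre-cDC2 replicate 2 or 3) and -1.05 ± 0.47 in WT (adjusted p = 0.202). Without WT pre-cDC2 replicate 2, Fos (-1.25 ± 0.14), Atf3 (-2.08 ± 0.21) and Ier2 (0.62 ± 0.11) passed in WT, at limma adjusted p = 0.000675, 0.000467 and 0.00636, with 2722 of all genes (18.4%). Junb was then at 0.38 ± 0.14, Jun at -0.21 ± 0.16, Fosb at -0.37 ± 0.16, Egr1 at -0.51 ± 0.20, Egr2 at -0.30 ± 0.73, Egr3 at -1.43 ± 0.75 and Jund at -0.07 ± 0.71, and none of these passed. Without replicate 3, Fos (-0.60 ± 0.14), Fosb (-0.67 ± 0.16) and Ier2 (1.03 ± 0.11) passed, at 0.0345, 0.0380 and 0.00104, with 1544 of all genes (10.4%), and Atf3 was at -0.02 ± 0.21. With all libraries, Fosb, Egr1 and Egr3 had lower means in pre-cDC2 of both genotypes and were not called.

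Scaling bears on these values. Total reads in place of the implied normalization factors moved the median of all genes to 0.35 in KO and 0.27 in WT, against 0.09 and 0.06 before, and the direction of Fosb (0.0514), Egr1 (0.0418) and Jund (0.0305) turned in KO under it. The split of all called genes moved as well, in KO with 1575 genes higher and 1499 lower by the deposited values, 2363 and 1138 by total reads, and 1359 and 1823 by quantiles. In WT it was 722 higher and 975 lower, 1124 and 789 by total reads, and 673 and 1071 by quantiles. The markers of T and NK cells given above differ between these groups by far more than the members do, and their part was not tested.

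**Figure D5:**
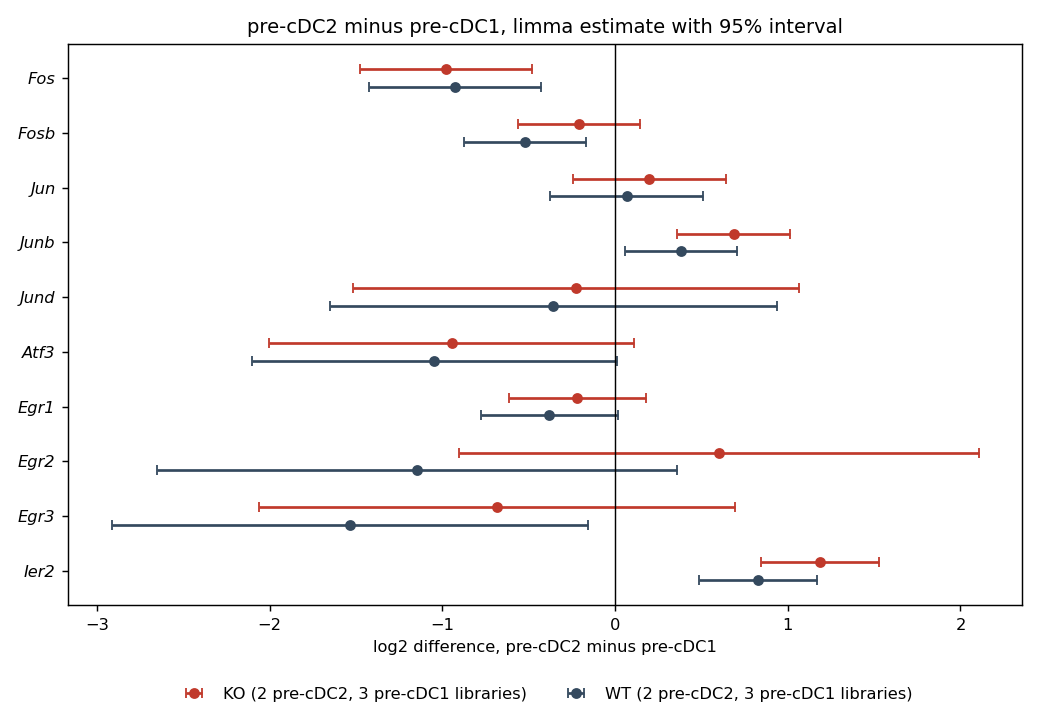
Difference between pre-cDC2 and pre-cDC1 on the log2 scale for each gene, with the limma estimate (point) and 95% interval (bar), in KO and in WT (2 pre-cDC2 and 3 pre-cDC1 libraries each). Ier2 lies above 0 in both genotypes (1.19 and 0.83) and Fos below 0 in both (-0.98 and -0.93).

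Differences between members within a library do not depend on its scaling. Fos exceeded Junb by 0.31 and 0.64 log2 RPKM in KO pre-cDC2, against 2.10 to 2.17 in KO pre-cDC1, and by 0.95 and 0.30 in WT pre-cDC2, against 1.78 to 2.08 in WT pre-cDC1. Fos exceeded Ier2 by 0.74 and 1.05 in KO pre-cDC2, against 2.90 to 3.18 in KO pre-cDC1, and by 0.94 and 0.70 in WT pre-cDC2, against 2.54 to 2.63 in WT pre-cDC1. The balance of Fos against Junb and Ier2 was thus lower in each pre-cDC2 library than in each pre-cDC1 library. Between genotypes the gap of Fos over Ier2 was wider in KO pre-cDC1 (2.90 to 3.18) than in WT pre-cDC1 (2.54 to 2.63), as Ier2 was lower in KO by more than Fos. Jun and Junb lay within 0.08 to 0.29 of each other in KO pre-cDC1 and within -0.07 to 0.01 in WT pre-cDC1, with Jun minus Junb as the difference.

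Once each library's values were centred on the mean of its cell type, the genes could be ranked by how closely each followed the mean pattern of the 10 over the 10 libraries. This is a description, and the split of genotypes is shared by all points. Each of the 10 genes is itself part of the mean pattern, which raises its r, while genes outside the group are not part of it. Ier2 (Pearson r = 0.978), Junb (0.958) and Egr1 (0.955) followed it most closely, and Jund (0.421) and Egr2 (0.281) least. Of genes outside the group, the most alike were Ddit4, which restrains mTOR under stress (r = 0.991), and Tsc22d3, a glucocorticoid-induced gene (0.989). Next came Maf1, a repressor of RNA polymerase III (0.972), the phosphatase Dusp1 (0.965), the MHC class I gene H2-K2 (0.959), the nucleotidase Nt5c3 (0.952), Nr4a1 (0.948) and the lectin-like receptor Klra17 (0.944). Of these, Ddit4 was itself called in pre-cDC1, at -2.31 (limma adjusted p = 0.0182).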

How the data were processed

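RNA was measured in 10 libraries, placed in 4 groups by the genotype and cell type in their labels. Per the labels' protocols, 2 ng of total RNA was amplified by SMARTSeq v2 and sequenced in paired ends. Per the submitters' processing notes, STAR 2.3, featureCounts 1.5.0, edgeR and R 3.3.3 were used with GRCm38. The edgeR version, annotation release and strand setting: not given in the sources used here. The authors deposited log2 RPKM values, and the values imply a prior count (mean 0.245 reads) and a normalization factor for each library.

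Whole reads were solved from the values with GENCODE M21 exon lengths. All 490350 values of the 49035 genes with a length came out whole within 0.001 reads, and lengths of the other 3515 genes were solved from the values. These reads served for totals, shares and 2 alternatives. PCR reads without molecular identifiers are not independent molecules.

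The test took the 14787 genes whose log2 RPKM exceeded 0 in 2 or more libraries, of which 15 short genes had no read. With limma 3.58.1 (R 4.3.3), 4 group means were fitted to all libraries (eBayes with trend, 6 residual and 3.31 prior degrees of freedom), and 6 two-sided comparisons were made, with Benjamini-Hochberg adjustment over all genes and a threshold of 0.05. The procedure was tested on simulated data. Groups of 2 and 3 libraries limit precision. The 10 genes, the lists and the comparisons were chosen with earlier results of these data known. The text names all 10 genes, the 2 to 4 genes of smallest p of each list described, Adam10, and the 8 genes most like the mean pattern with a mean log2 RPKM of 1 or more, predicted genes left out.

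Alternatives were no filter, a stricter filter (log2 RPKM over 1 in 3 or more libraries), the log2 of RPKM plus 1, quantile normalization, scaling to total recovered reads, voom on recovered reads, only the groups compared, replicate blocks, and leaving out each library.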

Additional observations from a re-analysis of the deposited data

How the results depend on the processing

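The direction of the KO and WT difference in pre-cDC1 was kept by all 10 genes under every alternative run, except that Egr3 and Jund did not pass the stricter filter and have no value there, and no member was called in the interaction under any of them. The number of members called in pre-cDC1 was 0 and became 1 (Ier2) with no filter, with the stricter filter and with only the groups compared; leaving out 1 library gave 0 to 5, in pre-cDC2 0 to 3, and averaged 0 to 7. Averaged over the cell types it was 1 and became 0 with quantile normalization, total reads, voom and the replicate block. Between the cell types it was 2 in WT and became 1 with quantile normalization and with the replicate block, 0 with only the groups compared and 0 with the replicate block within genotype, and ranged over 1 to 3 when 1 library was left out. In KO it was 3 and became 0 with the replicate block within genotype, and ranged over 1 to 4.

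The number of all genes called in pre-cDC1 was 4 and became 11 with no filter, 18 with the stricter filter, 2 with 1 RPKM added, 9 with quantile normalization, 12 with total reads, 53 with only the groups compared, and 0 with voom (1184 at an unadjusted p below 0.05) and the replicate block (1242); leaving out 1 library gave 0 to 114. In pre-cDC2 it was 10 and became 25 with no filter, 5 with 1 RPKM added, 4 with voom, 0 with only the groups compared (651 at an unadjusted p below 0.05) and 2 with the replicate block, with 5 to 1048 when 1 library was left out. Averaged it was 16, 5 with voom and 0 with the replicate block (1505 at an unadjusted p below 0.05), with 0 to 1089 on leaving out a library. For the interaction it was 3, 1 with the stricter filter, 6 with quantile normalization, 1 with voom and 0 with the replicate block (710 at an unadjusted p below 0.05), with 0 to 495. Between the cell types in WT it was 1697, 460 with only the groups compared and 217 with the replicate block within genotype, with 999 to 2722, and in KO 3074, 1094 with that block, with 1418 to 3887. The highest of these came without WT pre-cDC2 replicate 2 for the comparison in WT and without WT pre-cDC2 replicate 3 for the other 5 comparisons.

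Same-numbered libraries had correlations of -0.03 to 0.03 in their deviations from the group means, as had libraries of different numbers. In groups of 2 libraries the deviations mirror each other, so these values cannot show whether same-numbered libraries belong together. Jund turned under quantile normalization (-0.10) and the replicate block (-0.12) in the interaction. Under total reads Fosb (0.0514), Jund (0.0305) and Egr1 (0.0418) turned in the KO comparison of cell types. On leaving out 1 library the values that changed sign ranged as follows: in pre-cDC2 over -1.19 to 0.31 for Egr3, -1.93 to 0.14 for Atf3 and -0.15 to 1.54 for Egr2; between the cell types over -0.21 to 0.35 for Jun in WT and -1.43 to 0.0641 for Egr3 in KO; in the interaction over -0.93 to 1.13 for Atf3, -0.38 to 0.27 for Fos, -0.16 to 0.64 for Jund and -0.15 to 0.41 for Jun; and averaged over -0.60 to 0.24 for Egr2. The cause of these changes was not tested. Few reads limit the precision for Egr2, Egr3 and Jund, with 15 to 188 reads per library, and the counted gene model also bears on Jund.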

Other observations

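Within the group, some genes kept closer company than others. Over the 10 libraries, with values centred on the mean of the cell type, Pearson r was 0.971 between Fos and Atf3, 0.931 between Fos and Jun, 0.968 between Fosb and Junb and 0.957 between Egr1 and Ier2, while Fosb and Atf3 were at 0.526. Fos, Jun and Atf3 shared the high values of WT pre-cDC2 replicate 2, at 9.64, 8.64 and 7.39 log2 RPKM. Ier2 (8.70 and 8.29) and Egr1 (4.47 and 4.22) were also higher in that library than in WT replicate 3, and Fosb was lower (5.01 and 5.31). These values are a description of 10 libraries that share their genotype split.

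Relatives of the group differed between pre-cDC2 and pre-cDC1, and the genes of smallest p in KO are given. Batf3, the AP-1 factor that cDC1 need, was lower in pre-cDC2 by -6.74 ± 0.59 in KO and -5.93 ± 0.59 in WT (limma adjusted p = 0.000103 and 0.000342), and Fosl2, a Fos relative, was at 2.16 ± 0.44 in KO and 1.32 ± 0.44 in WT (0.00841 and 0.0921). Nfkbiz, of the NF-kB early response, was higher by 1.72 ± 0.13 in KO and 1.09 ± 0.13 in WT (limma adjusted p = 4.23e-05 and 0.000893), and Ccl3 by 2.31 ± 0.22 in KO and 0.85 ± 0.22 in WT (0.000157 and 0.0352). Of the immediate early genes, Csrnp1 was higher by 1.23 ± 0.17 in KO and 0.62 ± 0.17 in WT (limma adjusted p = 0.00104 and 0.0428), and Gadd45g, a stress-induced gene, was lower by -1.43 ± 0.23 in KO and -1.30 ± 0.23 in WT (0.00265 and 0.00796). Dusp1 was lower by -1.23 ± 0.17 in KO and -1.36 ± 0.17 in WT (limma adjusted p = 0.00118 and 0.00141), and Spry2 was at 6.34 ± 0.82 in KO and 2.17 ± 0.82 in WT (0.000839 and 0.131). Without WT pre-cDC2 replicate 2 the differences in WT were -7.02 for Batf3, 1.87 for Fosl2 (limma adjusted p = 0.0310), 1.13 for Nfkbiz, 1.06 for Ccl3, 0.55 for Csrnp1 (adjusted p = 0.103), -1.53 for Gadd45g, -1.54 for Dusp1 and 3.63 for Spry2 (adjusted p = 0.00833). Without replicate 3 they were 0.77 for Fosl2, 0.64 for Ccl3, 0.70 for Csrnp1 and 0.71 for Spry2 (limma adjusted p = 0.435, 0.183, 0.0687 and 0.653).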
